A study of Mus musculus with 49 samples.

Results

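The axon injury and regeneration genes followed here were the 8 genes Map3k12, Jun, Sox11, Gap43, Stmn4, Sprr1a, Ecel1 and Gal, chosen by gene symbol, out of 45252 genes in a count table of mouse neocortex. All 8 were found in the table, and 7 of them were among the 18220 genes that passed a filter on low counts and were tested. Gal was below that filter. Bulk RNA of about 30 mg of neocortex was sequenced from 49 mice of a mixed C57BL/6J x C3H/HeJ strain, with 1 library per mouse. All mice carried the tetO-hTDP43∆NLS allele, which encodes human TDP-43 lacking its nuclear localization signal, and all were kept on doxycycline until 25.5 weeks of age. Bigenic rNLS8 mice also carried NEFH-tTA, a transactivator driven by the human neurofilament heavy chain promoter, so that the transgene came on in neurons using this promoter once doxycycline was removed. Monogenic mice lacked the transactivator. The groups were 17 monogenic mice given PBS (ctrl-PBS, 10 females and 7 males), 10 bigenic mice given PBS (TDP-PBS, 4 females and 6 males), 10 bigenic mice given TDP-43 peptides 10 and 12 (TDP-10+12, 6 females and 4 males) and 12 bigenic mice given peptide 15 (TDP-15, 5 females and 7 males). Injections began at 8 weeks of age, 5 before and 1 after induction, each of 40 µg of peptide conjugate or of PBS, and tissue was taken 3 weeks after induction at 28.5 weeks of age. Each transgene came from 1 founder line, and the peptides were ovalbumin conjugates, so peptide and carrier cannot be told apart. Whether the PBS groups received the adjuvant is not clear from the sources used here.

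Axon damage in peripheral neurons is relayed to the nucleus by DLK, the kinase encoded by Map3k12, which activates c-Jun N-terminal kinases. These phosphorylate the transcription factor c-Jun, and together with ATF3, SOX11 and STAT3 it turns on genes for axon growth. Gap43 and Stmn4 encode a growth cone membrane protein and a microtubule regulator of the stathmin family, while Sprr1a, Ecel1 and Gal are genes that sensory and motor neurons switch on after a nerve is cut.

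Total counts lay between 17775738 and 21033608 per mouse. A floor of 3 counts, a setting chosen to mark low levels, stood at 0.143 to 0.169 CPM at these depths. CPM is the usual scale of counts relative to the normalized total of a library. The labelled sex fitted the data in 49 of 49 libraries. Mouse Tardbp was lower in all 3 bigenic groups than in ctrl-PBS (log2 fold changes of -0.30, -0.24 and -0.27), while the astrocyte gene Gfap was higher by 1.64, 1.64 and 1.57. The libraries least like the others of their group were mice 26 and 91 of TDP-PBS, mouse 254 of TDP-15 and mouse 301 of TDP-10+12, with median correlations with the rest of their group of 0.9727 to 0.9755, where the highest of all was 0.9831. Levels of regional marker genes also varied between the mice, and the cause was not tested. The summed level of 6 striatum markers ranged from 220 to 1354 CPM over the mice, that of 6 olfactory bulb markers from 10.7 to 231 CPM, and that of 5 choroid plexus markers from 12.7 to 1702 CPM. Against ctrl-PBS, 4 of the 6 olfactory bulb markers were lower in TDP-PBS (adjusted p under 0.05, edgeR), beside 21.6% of all genes tested. In TDP-10+12, 4 of the 5 choroid plexus markers were higher, beside 20.8% of all genes tested. The median olfactory bulb sum was 17.1 CPM in ctrl-PBS and 17.0 in TDP-PBS, with the maximum of 231 in ctrl-PBS mouse 280. The median choroid plexus sum was 27.2 CPM in ctrl-PBS and 37.3 in TDP-10+12. Its highest values were in mouse 51 of TDP-10+12 (1702 CPM), mouse 243 of TDP-15 (1552) and mouse 26 of TDP-PBS (1286).

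Promoter windows were taken from RefSeq (GRCm38.p6) for 6 of the 8 genes, 7 windows in all since Map3k12 has 2. They are shown because the Jun protein and its partners act through such sites. They span 250 bases before and 50 after each start site and were searched on both strands for TGANTCA (the AP-1 site bound by Jun dimers), TGACGTCA (CRE/ATF), TTCNNNGAA (STAT) and AACAATG (SOX). The letters TGACATCA, the AP-1-like site through which Jun regulates itself, were added after the sequences had been seen. The 3 windows with a match are shown without the bases after the start site, 5′ to 3′ on the strand of the gene, with the matches in capitals. All 3 lie on the minus strand, at chr4:95052223-95052472 for Jun, chr12:27342719-27342968 for Sox11 and chr3:92485882-92486131 for Sprr1a.
Jun: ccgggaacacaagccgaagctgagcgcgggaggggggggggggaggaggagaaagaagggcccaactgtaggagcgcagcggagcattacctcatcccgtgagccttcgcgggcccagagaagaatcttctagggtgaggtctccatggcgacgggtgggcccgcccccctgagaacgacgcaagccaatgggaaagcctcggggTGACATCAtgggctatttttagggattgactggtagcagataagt
Sox11: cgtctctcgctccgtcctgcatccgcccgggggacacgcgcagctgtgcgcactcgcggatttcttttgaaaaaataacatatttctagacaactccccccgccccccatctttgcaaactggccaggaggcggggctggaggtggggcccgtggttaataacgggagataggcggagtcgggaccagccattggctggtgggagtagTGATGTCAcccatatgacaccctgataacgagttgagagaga
Sprr1a: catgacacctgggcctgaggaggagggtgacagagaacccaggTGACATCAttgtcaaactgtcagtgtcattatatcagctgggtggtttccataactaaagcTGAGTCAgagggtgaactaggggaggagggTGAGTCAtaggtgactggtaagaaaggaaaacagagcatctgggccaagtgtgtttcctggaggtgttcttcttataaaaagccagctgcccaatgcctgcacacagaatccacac
The AP-1 letters TGANTCA occurred 2 times in the Sprr1a window, starting 146 and 116 bases before the start site, and in none of the other windows of these genes. Of all 32851 promoter windows, 7.81% held these letters and 0.46% held them 2 or more times. TGACATCA began 45 bases before the start site of Jun, 42 before that of Sox11 (on the opposite strand, where it reads as its reverse complement in the line above) and 207 before that of Sprr1a, and was present in 3.62% of all windows. The CRE/ATF, STAT and SOX letters, present in 1.79%, 8.30% and 3.78% of all windows, had no match in the windows of Jun, Sox11, Sprr1a, Ecel1, Gal and Map3k12. These matches describe the letters in a short window, and binding was not measured.

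By GENCODE annotation (GRCm38) all 8 genes are protein coding. Jun (chromosome 4, 95049034 to 95052222) and Sox11 (chromosome 12, 27334264 to 27342574) have 1 exonic block, and Map3k12 (chromosome 15, 102497646 to 102517064) has 17. Of the exonic bases of Map3k12, 17.5% also lie in exons of Pcbp2 on the opposite strand, and 7.28% of those of Jun lie in exons of its antisense gene Junos. Whether counting used strand is not given in the sources used here, so reads of such stretches cannot be assigned with certainty. Gap43 (chromosome 16, 42248442 to 42340651), Stmn4 (chromosome 14, 66344296 to 66361680), Sprr1a (chromosome 3, 92483952 to 92485895), Ecel1 (chromosome 1, 87147655 to 87156521) and Gal (chromosome 19, 3409915 to 3414544) share no exonic bases with another gene.

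Per kilobase of exon, the median level in ctrl-PBS was highest for Gap43 (109 CPM per kb), followed by Stmn4 (50.8), Jun (14.6), Map3k12 (14.3), Ecel1 (5.02), Sox11 (1.38), Sprr1a (0.257) and Gal (0.210). The ranges over the 17 mice overlapped between neighbours in this order only for Jun and Map3k12 and for Sprr1a and Gal. Transcripts of the growth cone and microtubule genes were thus abundant in control cortex, while Sprr1a and Gal were close to the detection limit.

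Map3k12 differed little between the groups. In ctrl-PBS its level lay between 121 and 139 CPM, with a median of 129. It was between 111 and 143 CPM in TDP-PBS (median 127), between 93.4 and 135 in TDP-10+12 (median 127) and between 119 and 137 in TDP-15 (median 129). The ranges overlapped throughout, and the low end in TDP-10+12 was mouse 301. The log2 fold change against ctrl-PBS was -0.02 ± 0.04 (SE) in TDP-PBS, -0.05 ± 0.04 in TDP-10+12 and 0.01 ± 0.04 in TDP-15, with adjusted p = 0.78, 0.32 and 0.92 by edgeR's quasi-likelihood test over all genes tested. The 95% intervals ran from -0.13 to 0.08 over the 3 comparisons.

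Jun, the transcription factor downstream of the DLK kinase, fell in 2 of the 3 bigenic groups. Its level was 37.9 to 70.0 CPM in ctrl-PBS with a median of 46.7, and 31.6 to 48.9 CPM in TDP-PBS with a median of 41.6. In TDP-10+12 it was 35.8 to 69.7 CPM (median 43.0) and in TDP-15 29.5 to 49.6 CPM (median 37.3). All ranges overlapped that of ctrl-PBS, and 4 of 10 TDP-PBS mice, 1 of 10 TDP-10+12 mice and 7 of 12 TDP-15 mice lay below the lowest ctrl-PBS mouse. The log2 fold change was -0.31 ± 0.09 in TDP-PBS (adjusted p = 0.0065), -0.35 ± 0.09 in TDP-15 (adjusted p = 0.0010) and -0.12 ± 0.09 in TDP-10+12 (adjusted p = 0.32, edgeR). Mouse 301 had the highest Jun level of the bigenic mice, and the next highest TDP-10+12 mouse stood at 49.8 CPM. With 1 mouse left out at a time, the TDP-10+12 value ran from -0.20 to -0.07 and was never called (adjusted p = 0.069 to 0.57, edgeR). The summed level of 5 pan-neuronal markers was 6109 to 7376 CPM in ctrl-PBS and 4346 to 5336 CPM over the bigenic mice, without overlap. Not every one of the 5 was separated in this way. By edgeR 3 were called lower and 2 were not called in each of TDP-PBS, TDP-10+12 and TDP-15. The shares of all genes called lower were 21.6%, 20.0% and 23.2%. Median log2 fold changes of the 5 markers were -0.26, -0.14 and -0.27. In bulk tissue, fewer neurons and less RNA per neuron cannot be told apart, and the part of the neuronal markers in the differences of Jun and the genes below was not tested.

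Sox11, a transcription factor of developing neurons that injured neurons express again, rose in TDP-10+12 alone among the comparisons with ctrl-PBS. In ctrl-PBS it was at 6.40 to 14.3 CPM, with a median of 11.4. The bigenic mice had 8.15 to 19.2 CPM in TDP-PBS (median 10.7), 11.1 to 20.1 in TDP-10+12 (median 12.1) and 7.92 to 12.7 in TDP-15 (median 10.5). No TDP-15 mouse left the range of ctrl-PBS, 1 TDP-PBS mouse (mouse 26) and 3 TDP-10+12 mice lay above it, and the highest of all was mouse 301. Against ctrl-PBS the log2 fold change was 0.30 ± 0.12 in TDP-10+12 (adjusted p = 0.039), 0.09 ± 0.12 in TDP-PBS (adjusted p = 0.59) and -0.09 ± 0.11 in TDP-15 (adjusted p = 0.56, edgeR). The call in TDP-10+12 ended when any 1 of 8 mice was left out, namely TDP-10+12 mice 301 (0.23, adjusted p = 0.12), 51 (0.27) and 277 (0.28) and ctrl-PBS mice 110, 137, 221, 318 and 343, with adjusted p = 0.052 to 0.12 by edgeR and values of 0.23 to 0.29. It also ended with no filter on low counts (adjusted p = 0.059, edgeR) and with limma-voom (0.22, adjusted p = 0.078). A covariate of the mean log2 level of the 3 hypothalamus markers past the filter ended it too (0.24, adjusted p = 0.12, edgeR).

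**Figure D1:**
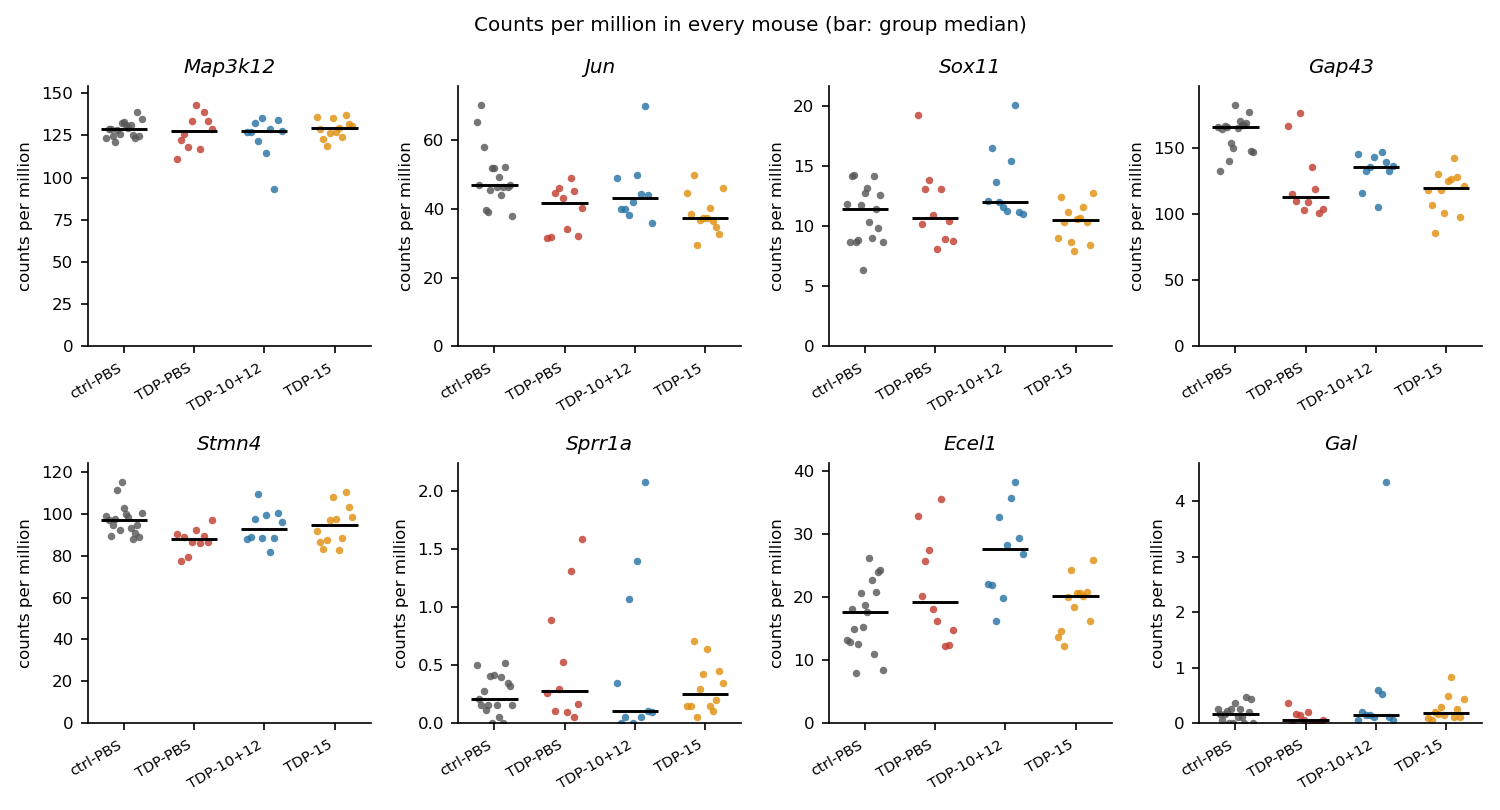
CPM (linear axes from 0) of the 8 genes in every mouse, with 1 point per mouse and a bar at the median of each group. The median of Gap43 is lower in each bigenic group than in ctrl-PBS, with overlapping ranges and mice 26 and 91 highest in TDP-PBS (166 and 176 CPM), and in TDP-10+12 mouse 301 stands apart for Gal (4.35 CPM), Jun (69.7 CPM) and Map3k12 (93.4 CPM).

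Gap43 was the member with the clearest change and fell in all 3 bigenic groups. The 17 ctrl-PBS mice had 133 to 182 CPM and a median of 165. Levels were 100.5 to 176 CPM in TDP-PBS (median 112), 105 to 147 in TDP-10+12 (median 135) and 85.5 to 142 in TDP-15 (median 119). The groups overlapped, with 7 of 10, 4 of 10 and 11 of 12 mice below the lowest ctrl-PBS mouse, and none of the bigenic mice outside TDP-PBS reached the ctrl-PBS median. Against ctrl-PBS the log2 fold change was -0.37 ± 0.08 in TDP-PBS (adjusted p = 5.22e-05), -0.27 ± 0.08 in TDP-10+12 (adjusted p = 0.0030) and -0.46 ± 0.07 in TDP-15 (adjusted p = 3.34e-07, edgeR), which is a fall of 17.0% to 27.5%. Within TDP-PBS the group split, since mice 26 and 91 had 166 and 176 CPM, as high as ctrl-PBS mice, and the other 8 mice reached at most 136 CPM. Without these 2 mice, an alternative chosen after seeing the data, Gap43 in TDP-PBS stood at -0.51 (adjusted p = 1.36e-08, edgeR). Mice 26 and 91 were also the libraries least like the rest of their group, and mouse 26 had a high level of the choroid plexus marker Ttr (1221 CPM). The part of these features in the Gap43 level was not tested.

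Stmn4, which encodes a stathmin of neurons that binds tubulin, fell in TDP-PBS and not measurably elsewhere. Control mice had 88.3 to 116 CPM, with a median of 97.4. The TDP-PBS mice had 77.7 to 97.3 CPM (median 87.9), against 81.9 to 110 in TDP-10+12 (median 92.7) and 82.9 to 111 in TDP-15 (median 94.8). All 10 TDP-PBS mice were below the ctrl-PBS median and 5 of them below the lowest ctrl-PBS mouse, against 6 of 10 and 6 of 12 mice below the median in TDP-10+12 and TDP-15. Against ctrl-PBS the log2 fold change was -0.15 ± 0.05 in TDP-PBS (adjusted p = 0.0066), -0.05 ± 0.05 in TDP-10+12 (adjusted p = 0.39) and -0.04 ± 0.04 in TDP-15 (adjusted p = 0.50, edgeR).

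Sprr1a encodes a small proline-rich protein of the cornified envelope of skin, known in the nervous system as a gene of injured axons. Counts were few, with at most 10 in any ctrl-PBS mouse and a median of 4. They reached 33 in TDP-PBS (lowest 1, median 5.5), 42 in TDP-10+12 (lowest 0, median 2) and 14 in TDP-15 (lowest 1, median 5). Levels were up to 0.516 CPM in ctrl-PBS, 1.59 in TDP-PBS, 2.08 in TDP-10+12 and 0.711 in TDP-15. By CPM, the mice above every ctrl-PBS mouse were 270 (33 counts), 217 (27), 42 (18) and 124 (10) of TDP-PBS. Mouse 124 equalled the ctrl-PBS maximum of 10 counts and lay above it only in CPM (0.523 against 0.516). Likewise above were 301 (42), 266 (28) and 200 (23) of TDP-10+12, and 126 (14) and 254 (13) of TDP-15. At the other end, 8 of 17 ctrl-PBS, 4 of 10 TDP-PBS, 6 of 10 TDP-10+12 and 5 of 12 TDP-15 mice had 3 counts or fewer. Against ctrl-PBS the log2 fold change was 1.09 ± 0.54 in TDP-PBS (adjusted p = 0.098), 1.06 ± 0.54 in TDP-10+12 (adjusted p = 0.11) and 0.30 ± 0.55 in TDP-15 (adjusted p = 0.69, edgeR), and none passed the test. With limma-voom the value in TDP-10+12 turned to -0.51 (adjusted p = 0.51), and with olfactory bulb markers as a covariate that in TDP-PBS reached 1.31 (adjusted p = 0.049). Of 9 epidermal genes, 1 to 3 had no count in a whole group, and their summed level was 5.46 to 9.69 CPM in ctrl-PBS and 5.54 to 11.3 CPM over the bigenic mice. Of the 4 that were tested, 2 rose and 1 fell in TDP-PBS (Krt1 0.31, Lor 0.47 and Krt10 -0.53) and in TDP-10+12 (Krt1 0.54, Dsp 0.99 and Krt10 -0.62), and 0 rose and 1 fell in TDP-15 (Krt10 -0.70, edgeR). Of all genes tested, 21.9% were called higher and 21.6% lower in TDP-PBS. These shares were 20.8% and 20.0% in TDP-10+12 and 23.6% and 23.2% in TDP-15. The part of the epidermal genes in the Sprr1a values was not tested.

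Ecel1, a neuronal peptidase of the neprilysin family also called damage-induced neuronal endopeptidase, rose in TDP-10+12. Its level ranged from 7.97 to 26.2 CPM in ctrl-PBS, with a median of 17.6. It was 12.3 to 35.6 CPM in TDP-PBS (median 19.1), 16.2 to 38.3 in TDP-10+12 (median 27.6) and 12.3 to 25.8 in TDP-15 (median 20.1). In TDP-10+12, 6 of 10 mice lay above every ctrl-PBS mouse and 9 of 10 above the ctrl-PBS median, whereas 3 of 10 TDP-PBS mice and 0 of 12 TDP-15 mice left the range of ctrl-PBS. Against ctrl-PBS the log2 fold change was 0.67 ± 0.17 in TDP-10+12 (adjusted p = 0.0010), 0.34 ± 0.17 in TDP-PBS (adjusted p = 0.10) and 0.16 ± 0.16 in TDP-15 (adjusted p = 0.46, edgeR). In TDP-PBS the value passed the test without mouse 233 (0.42, adjusted p = 0.045) and with olfactory bulb markers as a covariate (0.43, adjusted p = 0.030), and it was 0.20 (adjusted p = 0.39, edgeR) without mice 26 and 91.

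Ecel1 varied with the level of striatum markers within the groups. Over the 49 mice, with group means subtracted, its log2 level rose with that of the striatum markers (Pearson's r = 0.42, adjusted permutation p = 0.017, and Spearman's rho = 0.45, adjusted permutation p = 0.0088, over 7 genes tested, and r = 0.48 without mice 71 and 217). Sprr1a did so as well (r = 0.38, adjusted permutation p = 0.025, rho = 0.39, adjusted permutation p = 0.022, and r = 0.38 without the same 2 mice). The other 5 genes had r from -0.25 to 0.16 and none of them passed the test. Relations with the marker levels were computed after the data had been seen. Where mice were left out, the group means subtracted were still those of all mice. Of 6 striatum markers, 0 were called in TDP-10+12 against ctrl-PBS, beside 40.8% of all genes. With the level of these markers as a covariate, Ecel1 in TDP-10+12 stood at 0.70 (adjusted p = 2.41e-04, edgeR). In TDP-15, 2 of the 6 were called lower, with a median log2 fold change of -0.41, beside 23.2% of all genes lower. In TDP-PBS 0 of the 6 were called, beside 43.5% of all genes. The summed level of 8 hypothalamus markers was 5.19 to 31.8 CPM in TDP-10+12 (median 13.9) and 1.92 to 17.4 in ctrl-PBS (median 6.30). The summed choroid plexus markers stood at 22.9 to 1702 CPM in TDP-10+12 (median 37.3) and 13.6 to 372 in ctrl-PBS (median 27.2). The part of the choroid plexus markers in the Sox11 and Ecel1 values was not tested. Of the hypothalamus markers, Trh made up most and rose by 1.01 ± 0.33 on the log2 scale in TDP-10+12 against ctrl-PBS (adjusted p = 0.011, edgeR). Of the other 7 markers, Otp (0.46 ± 0.34, adjusted p = 0.29) and Sim1 (-0.25 ± 0.63, adjusted p = 0.79, edgeR) did not pass the test, and 5 were below the filter on low counts. With the mean log2 level of Trh, Otp and Sim1 as a covariate, Ecel1 in TDP-10+12 stood at 0.52 (adjusted p = 0.0077, edgeR).

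Gal, the neuropeptide galanin, was barely detected. At most 9 counts were found in a ctrl-PBS mouse (median 3) and 7 in a TDP-PBS mouse (median 1). The highest were 88 in TDP-10+12 (lowest 1, median 3) and 17 in TDP-15 (lowest 1, median 3.5). In the order of the groups above, 9 of 17, 8 of 10, 6 of 10 and 6 of 12 mice had 3 counts or fewer. Mouse 301 alone had 88 counts (4.35 CPM), against 12 in the next TDP-10+12 mouse and 17 in the highest of the others, mouse 261 of TDP-15. The 17 ctrl-PBS mice had a mean of 0.177 ± 0.149 CPM (SD) and the 10 TDP-PBS mice one of 0.0964 ± 0.120 CPM. For the 10 TDP-10+12 mice it was 0.628 ± 1.32 CPM, and for the 12 TDP-15 mice 0.262 ± 0.224 CPM. In two-sided permutation tests of the 6 differences between groups none passed after adjustment, with raw permutation p = 0.040 to 0.53 and adjusted p = 0.22 to 0.53. The smallest raw p was that of TDP-15 against TDP-PBS, a difference of 0.166 CPM, and the difference of TDP-10+12 against ctrl-PBS was 0.451 CPM (raw permutation p = 0.11) and 0.0365 CPM (raw permutation p = 0.61) without mouse 301. When no filter was applied, edgeR gave Gal in TDP-10+12 a log2 fold change of 1.80 (adjusted p = 0.013) and DESeq2 one of 1.83 (adjusted p = 0.012), both with mouse 301 in the group.

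Counted together, 3 of the 7 genes tested were called in TDP-PBS against ctrl-PBS at an adjusted p under 0.05, where 43.5% of all genes tested were called. All 3 (Jun, Gap43 and Stmn4) were lower and 0 were higher, beside 21.6% of all genes lower and 21.9% higher. In TDP-10+12, 3 of 7 were called beside 40.8% of all genes, with 1 lower (Gap43; 20.0% of all genes) and 2 higher (Sox11 and Ecel1; 20.8%). In TDP-15, 2 of 7 were called beside 46.9% of all genes, both lower (Jun and Gap43; 23.2%) and 0 higher (23.6%). The median log2 fold change of the 7 genes was -0.02, -0.05 and -0.04, against -0.00, 0.00 and -0.00 over all genes tested. Nothing particular to these 7 genes is read from such counts. The 3 comparisons share the ctrl-PBS mice, so their values are not independent of each other.

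**Figure D2:**
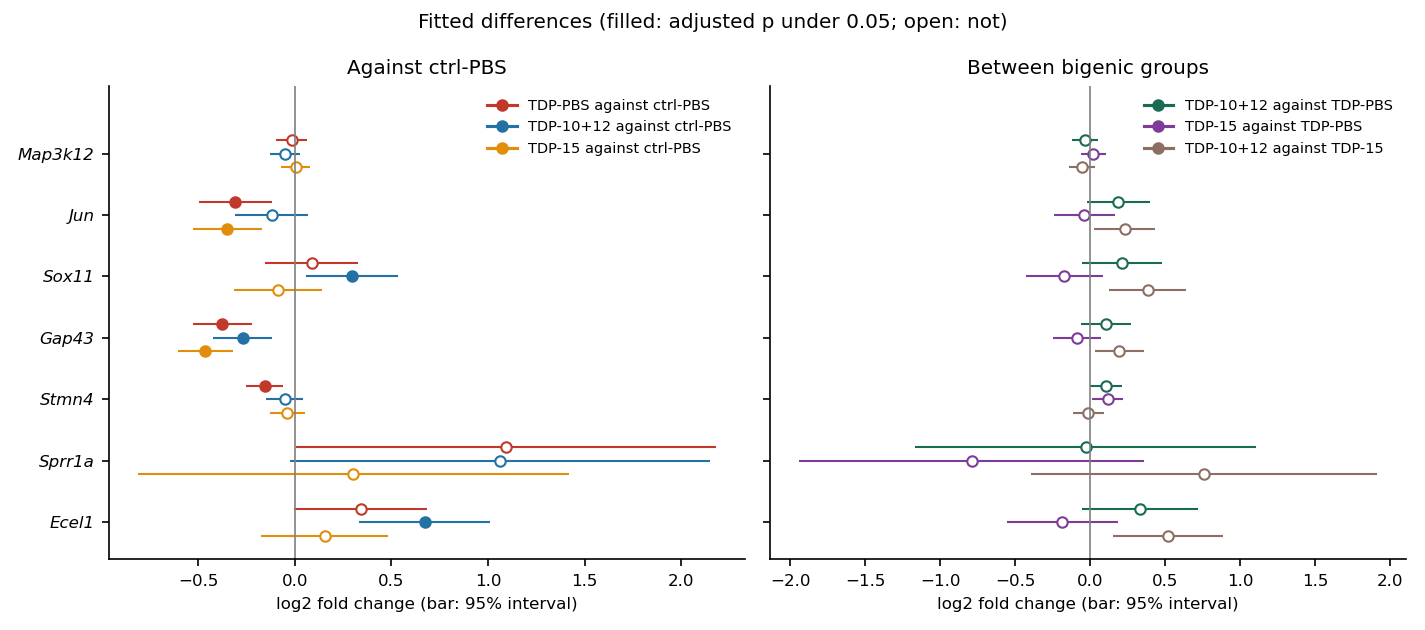
Log2 fold changes with 95% intervals of the 7 genes tested, against ctrl-PBS on the left and between bigenic groups on the right, with filled points for an adjusted p under 0.05. On the left 8 points are filled, 6 below 0 (Gap43 in all 3 groups, Jun in TDP-PBS and TDP-15, Stmn4 in TDP-PBS) and 2 above (Sox11 and Ecel1 in TDP-10+12), and on the right 0 are filled.

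The effect of the peptides was addressed by comparing the bigenic groups with each other. By edgeR 0 of the 7 genes were called in TDP-10+12 against TDP-PBS, in TDP-15 against TDP-PBS or in TDP-10+12 against TDP-15, where 0% of all genes were called in each, and 0, 1 and 4 of the 7 had an unadjusted p under 0.05. DESeq2 and limma-voom also called 0 of these genes. Over all genes the unadjusted p was under 0.05 for 953, 552 and 1244 genes, with 0, 0 and 2 called by DESeq2 and 2, 0 and 0 by limma-voom. The 4 of the last comparison were Sox11 (0.38 ± 0.13, adjusted p = 0.53), Ecel1 (0.52 ± 0.18, adjusted p = 0.55), Gap43 (0.19 ± 0.08, adjusted p = 0.64) and Jun (0.23 ± 0.10, adjusted p = 0.67, edgeR), all higher in TDP-10+12 than in TDP-15. The 1 of TDP-15 against TDP-PBS was Stmn4 (0.12 ± 0.05, unadjusted p = 0.028 by edgeR), which was not called after adjustment. The intervals leave room for sizeable differences in some genes and little in others. Against TDP-PBS the 95% interval of Ecel1 in TDP-10+12 ran from -0.05 to 0.72 and that of Sprr1a in TDP-15 from -1.94 to 0.36, whereas that of Map3k12 ran from -0.12 to 0.05 in TDP-10+12 and from -0.06 to 0.11 in TDP-15. For Gap43 against TDP-PBS the interval was -0.06 to 0.27 in TDP-10+12 and -0.25 to 0.07 in TDP-15. Ecel1 and Sox11 were called against ctrl-PBS in TDP-10+12 alone, and the direct tests between bigenic groups did not pass for either gene.

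The sexes were compared in the 27 PBS-treated mice, where 6 of the 8 genes passed the filter. The genotype by sex interaction was called for 0 of these 6 and for 0% of all 17363 genes tested by edgeR, with 1097 genes and 1 of the 6 at an unadjusted p under 0.05. DESeq2 and limma-voom also called 0 of the 6. That gene was Gap43, with a log2 fold change of -0.57 ± 0.11 in females and -0.19 ± 0.10 in males and a difference of 0.38 ± 0.14 (unadjusted p = 0.013, adjusted p = 0.74, edgeR). The TDP-PBS mice 26 and 91, whose Gap43 was as high as in ctrl-PBS, are both males.

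Pathway genes around the members, from lists chosen with earlier results known, are given by the genes called in each direction. The share of all genes tested that was higher and lower was 21.9% and 21.6% in TDP-PBS, 20.8% and 20.0% in TDP-10+12, and 23.6% and 23.2% in TDP-15, and each list is set beside these shares. Of 10 tested AP-1 and ATF partners of Jun, 4 rose, 2 fell and 4 were not called in TDP-PBS, with a median of 0.01, beside 21.9% of all genes higher and 21.6% lower. The genes named from each list are those with the largest changes and relatives of the members. Atf3, the ATF partner induced by injury, rose by 2.94 ± 0.23 (adjusted p = 4.23e-15), from a median of 0.430 CPM in ctrl-PBS to 3.32 in TDP-PBS, and Fosl1 by 3.32 ± 0.45 from 0.104 to 0.861 CPM. Fos was lower, with -0.76 ± 0.31 (adjusted p = 0.0465, edgeR), a call that was lost under 6 of 13 other settings and without any 1 of 25 of the 49 mice (adjusted p = 0.050 to 0.089). Junb stood at -0.24 ± 0.16 (adjusted p = 0.24, edgeR). In TDP-10+12 and TDP-15, 4 of the partners rose as well, with 1 and 3 lower, and Atf3 rose by 2.71 and 3.20. All 10 TDP-PBS, 9 of 10 TDP-10+12 and all 12 TDP-15 mice had more Atf3 than any ctrl-PBS mouse.

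Of 13 other injury transcription factors, 5 rose, 0 fell and 8 were not called in TDP-PBS (21.9% of all genes higher, 21.6% lower), with 5 higher and 1 lower in both TDP-10+12 and TDP-15 and medians of 0.06, 0.11 and 0.08. Cebpd rose by 1.10 ± 0.18 in TDP-PBS, Klf6 by 0.66 ± 0.06 and Stat3 by 0.52 ± 0.08. Of the relatives of Sox11, Sox4 rose by 0.27 ± 0.09 (adjusted p = 0.014), and Sox12 stood at -0.02 ± 0.06 (adjusted p = 0.78, edgeR). In the DLK and JNK pathway, 1 of 17 genes rose, 7 fell and 9 were not called in TDP-PBS, so that 8 were called where 43.5% of all genes were. In TDP-10+12 0 rose and 7 fell (40.8% of all genes called), and in TDP-15 1 rose and 9 fell (46.9%), with medians of -0.13, -0.14 and -0.13. Mapk9, the gene of JNK2, fell most, with -1.22 ± 0.04, from 212 to 259 CPM in ctrl-PBS to 86.6 to 114 in TDP-PBS, and in all 32 bigenic mice it was below every ctrl-PBS mouse. Mapk10 (JNK3) fell (-0.32 ± 0.05), as did Fbxo45 (-0.44 ± 0.05), part of the ubiquitin ligase that degrades DLK, while Mapk8 (JNK1, -0.06 ± 0.05) and Map3k13, the kinase closest to Map3k12 (-0.00 ± 0.07), did not pass the test.

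**Figure D3:**
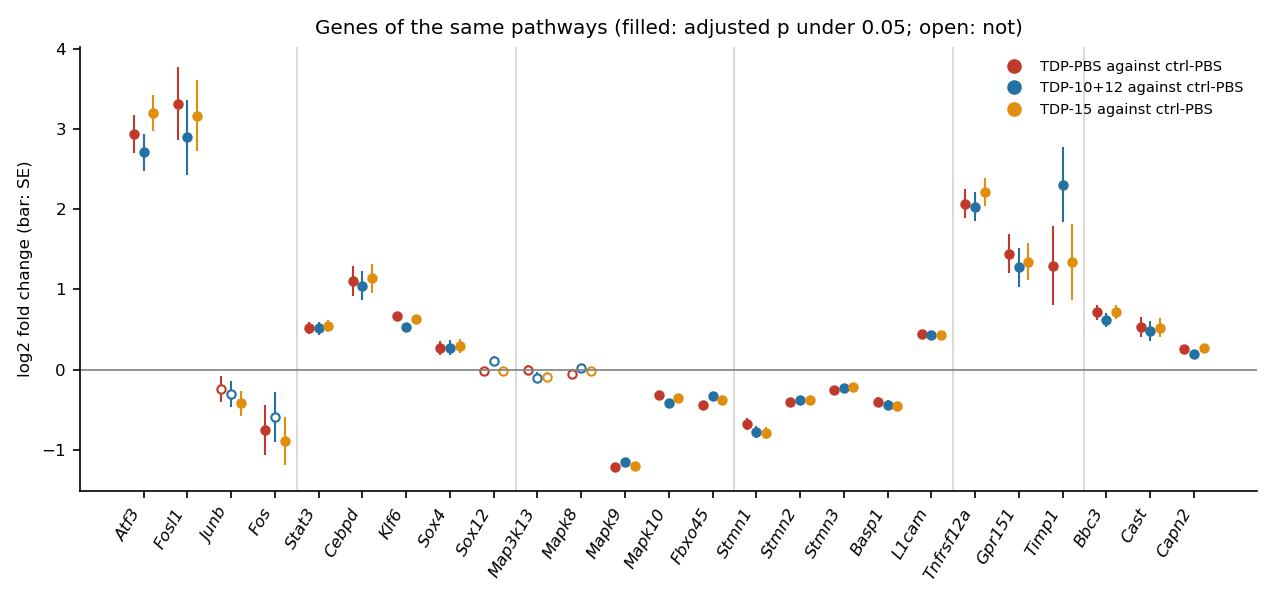
Log2 fold changes (bars: SE) against ctrl-PBS of 25 named pathway genes in the 3 bigenic groups, with filled points for an adjusted p under 0.05. Grey lines part AP-1 and ATF partners, other transcription factors, the DLK and JNK pathway, growth cone and microtubule genes, other injury-induced genes and axon degeneration genes. Atf3 and Fosl1 lie near 3 in every group and Mapk9 near -1.2.

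Of 17 growth cone and microtubule genes, 2 rose and 9 fell in TDP-PBS (21.9% of all genes higher, 21.6% lower), 4 rose and 8 fell in TDP-10+12 (20.8% and 20.0%), and 1 rose and 10 fell in TDP-15 (23.6% and 23.2%), with medians of -0.21, -0.06 and -0.20. The stathmins Stmn1 (-0.68 ± 0.08), Stmn2 (-0.40 ± 0.04) and Stmn3 (-0.25 ± 0.04) fell in TDP-PBS, as did their relative Stmn4 (-0.15 ± 0.05). Differences in size between these genes were not tested. Basp1, a membrane protein of growth cones like Gap43, fell as well (-0.40 ± 0.05). The adhesion molecule L1cam rose by 0.44 ± 0.04, and in every bigenic mouse it was above every ctrl-PBS mouse. Of 25 tested genes known to be induced by nerve injury, 10 rose and 6 fell in TDP-PBS (21.9% of all genes higher, 21.6% lower), 11 rose and 5 fell in TDP-10+12 (20.8% and 20.0%), and 8 rose and 6 fell in TDP-15 (23.6% and 23.2%), with medians of 0.02, 0.09 and 0.00. Tnfrsf12a, a receptor of the TNF family, rose by 2.07 ± 0.18 and the orphan receptor Gpr151 by 1.45 ± 0.24. Timp1 rose by 1.30 ± 0.50 (adjusted p = 0.030, edgeR) and lost this call without mouse 26 (1.16, adjusted p = 0.063) and under 4 other settings (1.07 to 1.24, adjusted p = 0.054 to 0.11, edgeR). Of 11 axon degeneration genes, 3 rose, 1 fell and 7 were not called in TDP-PBS, so that 4 were called beside 43.5% of all genes, with a median of -0.01. The 3 that rose were Bbc3 (0.71 ± 0.09), Cast (0.53 ± 0.13) and Capn2 (0.25 ± 0.04). None of the 4 galanin receptor and paralog genes passed the filter, and Galr1 had a median of 0.155 CPM in ctrl-PBS and 0.106 in TDP-PBS.

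Within the groups, the members did not vary as 1 block. Among the 32 bigenic mice, with group means subtracted, 6 of 21 pairs of genes were correlated at an adjusted permutation p under 0.05. The share of all gene pairs that is correlated to this degree was not computed, so nothing particular to the members is read from this count. Sox11, Gap43 and Ecel1 varied together, with r = 0.50 for Sox11 and Gap43 (rho = 0.49), 0.54 for Sox11 and Ecel1 (rho = 0.51) and 0.57 for Gap43 and Ecel1 (rho = 0.60). Map3k12 ran against 3 genes, with r = -0.66 for Sox11 (rho = -0.52), -0.58 for Ecel1 (rho = -0.56) and -0.57 for Sprr1a (rho = -0.51). Adjusted permutation p-values of these 6 were 0.0021 to 0.012 for r and 0.0069 to 0.017 for rho, against a smallest p of 1e-05 that the permutations can give. The 2 mice farthest from the median of the first gene carried part of this. They were left out after the group means of all mice had been subtracted, so their pull on these means remained. Without them r fell to 0.40 for both Sox11 pairs with Gap43 and Ecel1, to -0.46 for Sox11 and Map3k12 and to -0.38 for Sprr1a and Map3k12, and 3 pairs were called, Gap43 and Ecel1 (0.50, adjusted permutation p = 0.036), Ecel1 and Map3k12 (-0.55, adjusted permutation p = 0.031) and Sox11 and Stmn4 (-0.50, adjusted permutation p = 0.036). Mice 26 and 301 were the 2 left out for Sox11. Without mouse 301 alone, left out in the same way, 6 pairs were called. Both genes of a pair were read from the same library, and levels of regional markers differed between libraries.

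Among the 17 ctrl-PBS mice, 0 of 21 pairs passed the permutation test after adjustment and 2 had an unadjusted permutation p under 0.05. The pair farthest from 0 was Sox11 and Stmn4 (r = -0.64, adjusted permutation p = 0.11, rho = -0.47, adjusted permutation p = 0.48, and r = -0.46 without mice 137 and 99). Whether the bigenic and ctrl-PBS mice differ in these relations was not tested, and fewer mice stand behind the latter.

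**Figure D4:**
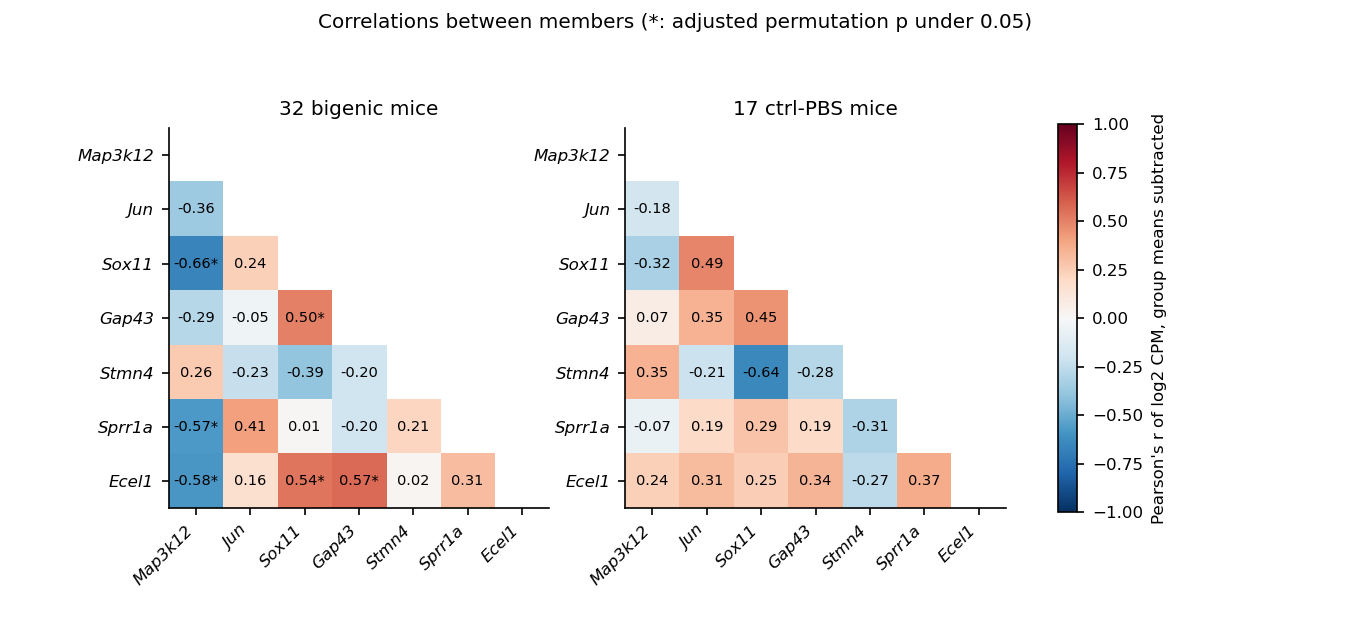
Pearson's r of log2 CPM between the 7 genes tested, with group means subtracted, in the 32 bigenic mice (left) and the 17 ctrl-PBS mice (right). Colour and number give r on a scale from -1 to 1, and a star marks an adjusted permutation p under 0.05. The 6 starred pairs are all in the bigenic mice, 3 of them with Map3k12 and negative.

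The genes most like each member over all 49 mice, by Pearson's r of log2 CPM with group means subtracted among 18219 others, differed from member to member. For Map3k12 they were Ajm1, Slc12a5 and Rnf112 (r = 0.78 to 0.81), for Gap43 Tmem35a, Sh3kbp1 and Tmem130 (0.74 to 0.81) and for Ecel1 Dlk1, Nts and Arhgap36 (0.76 to 0.77). For Sprr1a they were Itga5, Gem and Fam83g (0.67 to 0.71), for Sox11 Adcy4, Scn3b and Dpy19l3 (0.60 to 0.69), for Stmn4 Abcb8, Pomgnt1 and Nudt18 (0.64 to 0.66) and for Jun Dazap1, Rbm28 and Stat3 (0.59 to 0.60). No gene was named for more than 1 member, and no member was named for another. Such r values are the highest of many and are given as a description.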

How the data were processed

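Cortical RNA of 49 mice was measured as read counts per gene. Libraries were read as pairs of 100 bp, and the authors mapped them to GRCm38.p6. The deposited table holds whole-number counts that have not been normalized. HISAT, HISAT2, Bowtie, Bowtie2 and RSEM are named in the submitters' processing notes without a role, and the annotation, the counting rule and the strand setting are not given in the sources used here. Genes with overlapping neighbours are therefore uncertain.

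Groups came from the sample labels, and no 2 libraries of a group were copies of each other (smallest chi-square per degree of freedom 7.24). P-values measure the spread between separate animals. Low genes were removed by edgeR's filterByExpr using the groups (minimum count 10, minimum total 15). After TMM scaling, all 49 mice entered 1 model, tested with edgeR's quasi-likelihood test (edgeR 4.0.16, R 4.3.3), two-sided, with Benjamini-Hochberg adjustment over 18220 genes. CPM are on the TMM scale. Fold changes are log2 with an SE derived from the F statistic. Gal, below the filter, and correlations between members were tested by permutation with 100000 resamples, adjusted over 6 differences, 21 pairs or 7 marker relations. Intervals of fold changes come from the fit and include the spread between mice, while the floors of 3 counts cover counting error only. The fit was tested on simulated counts.

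Alternatives were DESeq2 size factors, upper-quartile scaling, no filter, at least 10 counts in every mouse, sex or 2 surrogate variables (sva 3.50.0) as covariates, a fit on just the compared groups, limma-voom using quality weights (limma 3.58.1) and DESeq2 1.42.0. Leaving out mice, the striatum, olfactory bulb and hypothalamus covariates and the marker relations were added after seeing the data. Each marker level used in these was the mean log2 CPM of the markers of that list past the filter. Members, gene lists and tests were chosen with earlier results of these data known. Besides the 8 members, the genes named were of each pathway list the 3 with the largest absolute log2 fold change past the threshold in TDP-PBS, 14 relatives fixed by name, the 3 genes most like each member, and Tardbp and Gfap. Trh, Otp, Sim1, Krt1, Krt10, Lor, Dsp, Ttr, Pcbp2 and Junos were added to the named genes with their values in view. Gene positions and exonic lengths are from GENCODE vM21. The median depth was 19955601 counts per mouse.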

Additional observations from a re-analysis of the deposited data

Results flagged for a closer look

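Mouse 301 of TDP-10+12 stood apart from the other 9 mice of its group in 3 of the 8 genes. It had the highest Jun level, 69.7 CPM against 49.8 in the next mouse, the highest Gal level, 4.35 CPM against 0.599, and the lowest Map3k12 level, 93.4 CPM against 115. It also had the highest Gfap (1133 CPM), Sox11, Sprr1a and Ecel1 of its group. In TDP-PBS, mouse 26 had the highest Sox11, 19.2 CPM against 13.8 in the next mouse, and the highest Gal, 0.366 CPM (7 counts) against 0.191. Each of these 5 values lay farther from its nearest neighbour, relative to the range of its group, than Dixon's 95% limit for 10 mice, among 16 combinations of gene and group tested. Chance flags about 1 in 20 groups of normally distributed values. The Gal values rest on few counts, and for them this rate need not hold. The 5 values belong to 2 mice, both among the libraries least like the rest of their group, and what sets these mice apart was not tested.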

How the results depend on the processing

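Calls against ctrl-PBS for Gap43 (all 3 groups), Jun (TDP-PBS, TDP-15), Stmn4 (TDP-PBS) and Ecel1 (TDP-10+12) held under each alternative run, leaving out each mouse included. The Sox11 call in TDP-10+12 was lost under 3 settings and without any 1 of 8 mice. In TDP-10+12 Gal was called with no filter and with DESeq2. With olfactory bulb markers as a covariate, Sprr1a and Ecel1 joined in TDP-PBS, which gave 5 genes called in place of 3. Without the 2 mice farthest on the x axis, left out after the group means of all mice had been subtracted, 3 pairs were correlated in bigenic mice in place of 6. No paired analysis was possible because every mouse is a separate animal with a number of its own.

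Directions turned only for values that had not passed the test. With limma-voom these were Sox11 (-0.025), Map3k12 (0.0048) and Map3k13 (0.0057) in TDP-PBS against ctrl-PBS, Sprr1a (-0.51) in TDP-10+12 against ctrl-PBS and (-0.76) against TDP-15, Gap43 (0.015) and Ecel1 (0.028) in TDP-15 against TDP-PBS, and the interaction of Map3k12 (0.013). Without mice 26 and 91 they were Sox11 (-0.059), Map3k12 (0.033) and Map3k13 (0.017) in TDP-PBS against ctrl-PBS and Gap43 (0.054) and Map3k12 (-0.017) in TDP-15 against TDP-PBS. With the striatum covariate they were Map3k12 (-0.0059) in TDP-15 against ctrl-PBS and Sprr1a (0.081) in TDP-10+12 against TDP-PBS. With the hypothalamus covariate they were Stmn4 (0.0027) in TDP-10+12 against TDP-15 and Map3k13 (0.016) in TDP-PBS, and with the olfactory bulb covariate Sox12 (0.0010) and Map3k13 (0.0052) in TDP-PBS. Map3k13 in TDP-PBS also turned with upper-quartile scaling (0.0015), at least 10 counts in every mouse (0.0034) and only the groups compared (0.0072).

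Leaving out 1 mouse at a time, values against ctrl-PBS ranged as follows in TDP-PBS. Sox11 ran from -0.0093 to 0.15 (below 0 without mouse 26), Map3k12 from -0.024 to 0.016 (above 0 without 26, 42, 91 or 217), Map3k13 from -0.025 to 0.029 (above 0 without any 1 of 26 mice) and Sox12 from -0.043 to 0.0068 (above 0 without 42, 124, 146 or 270). Map3k12 ran from -0.0029 to 0.019 in TDP-15 against ctrl-PBS (mice 54 and 284), from -0.056 to 0.0034 in TDP-10+12 against TDP-PBS (mouse 301) and from -0.00045 to 0.040 in TDP-15 against TDP-PBS (mouse 26). Sprr1a ran from -0.60 to 0.33 in TDP-10+12 against TDP-PBS (10 mice) and Stmn4 from -0.040 to 0.0089 in TDP-10+12 against TDP-15 (mice 243, 277 and 284). The Gal difference between TDP-10+12 and TDP-15 was 0.365 CPM with mouse 301 and -0.0489 CPM without it. The cause of these changes was not tested. Gal and Sprr1a had 3 counts or fewer in many mice, and their values rest on few counts.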
